A study of Mus musculus with 6 samples.

Results

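The BTG/TOB proteins and the CCR4-NOT deadenylase were examined as 10 genes of the mouse count table, taken by symbol from its 31017 rows. They comprised 5 BTG/TOB genes (Btg1, Btg2, Btg3, Tob1 and Tob2) and 5 CCR4-NOT subunit genes (Cnot1, Cnot6, Cnot6l, Cnot7 and Cnot8). The 10 genes were chosen by their function, with their counts in the control and KO libraries and the fold changes between these groups already known. Their own differences between the groups are therefore given as a description, without p-values, and p-values are given only for genes outside the 10. The related gene lists were also chosen with earlier results of these data known, so their p-values are not independent support. All 10 genes passed the filter on low counts, which kept 14268 genes.

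RNA was sequenced from Th17 cells, helper T cells that secrete interleukin 17, differentiated in culture. The 6 libraries comprised 3 from control cells of genotype WT and 3 from RTF1-deficient cells of genotype KO, numbered 1 to 3 in each group. RTF1 works beside the PAF1 complex on elongating RNA polymerase II and promotes ubiquitination of histone H2B. The way in which Rtf1 was removed, the strain, age and sex of the mice, and the length of culture were not given in the sources used here. No label says whether the replicates were separate cultures or animals. The Y-linked counts given below show male cells in replicate 3 of each group and not in replicates 1 and 2. Each group therefore held cells of more than 1 animal, while replicates 1 and 2 may share an animal. The p-values below measure only the spread between these libraries, which may be partly technical.

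Messenger RNAs carry a poly(A) tail that protects them from decay, and shortening this tail is usually the first step of their breakdown. CCR4-NOT is the main complex that shortens it: CNOT1 is the scaffold, CNOT7 and CNOT8 are a pair of alternative nucleases of the CAF1 type, and CNOT6 and CNOT6L are alternative nucleases of the CCR4 type. BTG and TOB proteins bind the CAF1 nucleases through their shared BTG domain. They slow cell division in many cell types, and BTG1, BTG2 and TOB1 are known for holding T cells in a resting state.

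Total counts ranged from 16489813 to 51271226 per library. Values are given in CPM, counts scaled to a common library total with TMM factors, and the log2 fold change is KO over control from edgeR with its standard error (SE). Rtf1, the targeted gene, held 88.3 to 94.0 CPM in the control libraries and 26.2 to 45.3 CPM in the KO libraries (log2 fold change −1.42, SE 0.191). Replicate 3 of each group held 11376 (control) and 5147 (KO) counts from 4 Y-linked genes, whereas the other libraries held 1 to 3, so the differences were also computed without replicate 3. The 6 marker genes of T and Th17 cells summed to 2042 to 2632 CPM in control and 1043 to 1633 CPM in KO. Summed markers of other cells were low in every library. The 4 B cell markers gave 0.743 to 2.14 CPM in control and 1.63 to 2.35 in KO, the 4 myeloid markers 0.289 to 0.618 and 1.04 to 3.11, and the 4 CD8 and NK markers 6.87 to 10.5 and 5.39 to 9.61, with Ncr1 and Klrb1c at 0 in all 6 libraries. The 3 fibroblast markers stayed at or below 0.759 CPM and the 3 erythroid markers at or below 0.0826 CPM. In such bulk RNA, fewer cells of a type and less RNA per cell cannot be told apart.

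The promoter windows of Btg2, Tob1 and Btg1 are shown because these genes include the pair with the largest differences and the member with the highest level. Each window covers the 250 bases before the annotated start in RefSeq (GRCm38.p6), written 5′ to 3′ on the gene's own strand. Capitals mark matches, on either strand, to the CRE (TGACGTCA), the TATA box (TATAAA), the CCAAT box (CCAAT), the GC box (GGGCGG) and the FOXO motif (TGTTTAC). The Btg2 window is chr1:134079156-134079405 on the minus strand, the Tob1 window chr11:94211204-94211453 on the plus strand, and the Btg1 window chr10:96616751-96617000 on the plus strand.
Btg2: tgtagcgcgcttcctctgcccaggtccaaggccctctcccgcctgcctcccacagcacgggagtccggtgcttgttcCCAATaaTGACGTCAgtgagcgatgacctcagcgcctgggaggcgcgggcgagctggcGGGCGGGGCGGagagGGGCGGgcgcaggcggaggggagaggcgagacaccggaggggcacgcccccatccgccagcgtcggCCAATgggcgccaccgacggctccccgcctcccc
Tob1: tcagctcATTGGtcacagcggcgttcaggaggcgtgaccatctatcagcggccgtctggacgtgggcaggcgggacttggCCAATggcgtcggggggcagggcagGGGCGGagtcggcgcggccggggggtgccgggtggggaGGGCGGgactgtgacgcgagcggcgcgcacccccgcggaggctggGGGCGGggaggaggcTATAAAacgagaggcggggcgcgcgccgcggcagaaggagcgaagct
Btg1: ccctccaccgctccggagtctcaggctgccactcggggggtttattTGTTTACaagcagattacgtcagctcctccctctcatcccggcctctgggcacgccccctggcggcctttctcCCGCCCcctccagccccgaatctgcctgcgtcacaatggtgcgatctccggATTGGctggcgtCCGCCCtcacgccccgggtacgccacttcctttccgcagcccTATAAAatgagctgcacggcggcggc

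The Btg2 window held a CRE whose first base lies 166 bases before the start, a motif found in 1.55% of the 32817 promoter windows of the same length. It also held CCAAT boxes starting 173 and 34 bases before the start and 3 GC boxes, of which 2 overlap by 1 base. The Tob1 and Btg1 windows each held a TATA box, starting 47 and 26 bases before the start, which 12.4% of all windows contain on either strand. Among the members with a window, only Btg1 had a FOXO motif, 204 bases before the start, against 3.16% of all windows. GC boxes stood in windows of all 8 members that had one, and CCAAT boxes in those of 5, Btg1, Btg2, Tob1, Btg3 and Cnot6. Across all windows, 32.7% held a GC box and 33.8% a CCAAT box. These are shares of single windows, whereas a member was counted if any of its windows matched. Not every window of Btg3 and Cnot8 held a GC box. The 14 windows of these 8 members, which include several start sites for Btg3, Cnot6l and Cnot8, contained 55.6% to 82.4% G and C, against a median of 52.4% over all windows. The p53 half-site was found in none of the members' windows and in 7.12% of all windows. RefSeq entries were matched for 8 of the 10 members, and Cnot1 and Cnot7 had no match. A motif match describes letters in the window and not a bound site.

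BTG/TOB genes were mostly higher in the KO libraries, and CCR4-NOT subunits were not. Of the 5 BTG/TOB genes, 4 had all KO libraries above all control libraries and passed the call rule, an edgeR adjusted p under 0.05, in the upward direction. Of all tested genes, 23.2% passed it in that direction and 29.9% had all KO libraries above all control libraries. Among the 5 CCR4-NOT members, 2 passed the rule, both lower in KO, against 22.9% of all tested genes, and these 2 had each KO library below each control library, against 28% of all tested genes. In either direction, 6 of the 10 members passed the rule, against 46.1% of all tested genes, and 7 had groups that did not overlap, against 57.9%. Nothing is read from these counts because the members were chosen with this contrast known. The median log2 fold change was 1.56 for the BTG/TOB genes, −0.18 for the CCR4-NOT members and 0.013 for all tested genes.

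**Figure D1:**
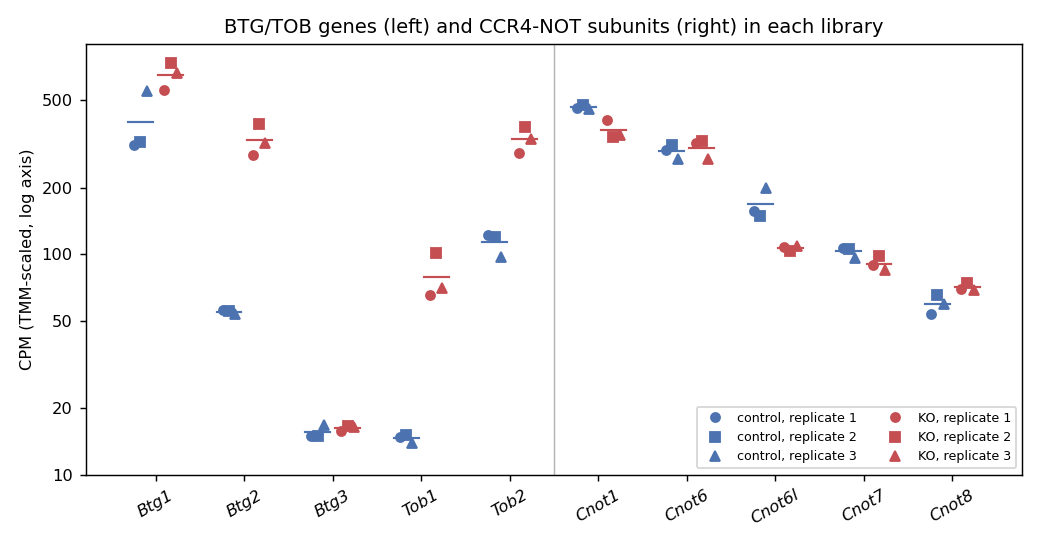
Level of each member in each library, in CPM on a log axis; points are libraries (blue control, red KO, shapes for replicate numbers) and short lines are group means. Btg2, Tob1 and Tob2 have KO libraries far above control, while Btg3 and Cnot6 overlap between the groups.

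Btg2, an antiproliferative gene induced by growth signals and by p53, differed most. Control libraries 1, 2 and 3 held 55.7, 55.5 and 53.7 CPM, and KO libraries 1, 2 and 3 held 282.6, 391.3 and 318.6 CPM. The control libraries lay close together, every KO library was far above them, and KO replicate 2 was the highest. The means were 55.0 ± 1.07 CPM in control and 330.8 ± 55.4 CPM in KO (n = 3, SD), a 6.02-fold difference (log2 fold change 2.59, SE 0.144). The coefficient of variation was 1.94% in control, against a median of 16.8% over all tested genes, and 16.7% in KO, against a median of 13.3%. Only 2.71% of tested genes had a larger log2 fold change. Btg2 is also one of the classic p53 target genes, and the values here are the same rows of the table.

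Tob1, a BTG/TOB protein with a long tail that binds the cytoplasmic poly(A)-binding protein, was among the least abundant members in control. It held 14.8, 15.2 and 13.9 CPM in control libraries 1, 2 and 3 and 65.1, 101.2 and 70.6 CPM in the KO libraries. As for Btg2, control was tight and KO replicate 2 was the highest library. The means were 14.6 ± 0.689 and 78.9 ± 19.4 CPM (n = 3, SD), a 5.40-fold difference (log2 fold change 2.43, SE 0.182).

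Tob2, the close relative of Tob1 with the same binding partners, held 122.6, 119.8 and 97.2 CPM in control libraries 1, 2 and 3. The KO libraries held 286.8, 378.8 and 334.3 CPM. Every KO library was above every control library, and control replicate 3 was the lowest of all. The means were 113.2 ± 13.9 and 333.3 ± 46.0 CPM (n = 3, SD), a 2.95-fold difference (log2 fold change 1.56, SE 0.148).

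Btg1, the nearest relative of Btg2, was the most abundant BTG/TOB gene in control and differed less between the groups. Control libraries 1, 2 and 3 held 314.4, 324.3 and 552.0 CPM, and KO libraries 1, 2 and 3 held 554.6, 735.4 and 664.4 CPM. Control replicate 3 stood far above the other control libraries and just below KO replicate 1, so the groups were separated by a narrow gap. The means were 396.9 ± 134.4 and 651.5 ± 91.1 CPM (n = 3, SD), a 1.64-fold difference (log2 fold change 0.71, SE 0.226). Between libraries of equal number the log2 difference was 0.82, 1.18 and 0.27 for numbers 1, 2 and 3. When single libraries were left out, Btg1 no longer passed the call rule in 4 of 6 fits: without control replicate 1 (log2 fold change 0.52), control replicate 2 (0.57), KO replicate 2 (0.62) or KO replicate 3 (0.70). Without replicate 3 of both groups the log2 fold change was 1.01.

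Btg3, a more distant family member, was present at a similar level in both groups. It held 15.0, 15.0 and 16.7 CPM in control libraries 1, 2 and 3 and 15.7, 16.7 and 16.5 CPM in the KO libraries, so the groups overlapped. The log2 fold change was 0.065 (SE 0.137), and without control replicate 1 it was −0.027. Btg3 is uncertain, because transcripts of other genes hold 30.9% of its 50-base stretches, mainly Gm7334, and 17.3% of its exonic bases overlap Cxadr on the opposite strand. Btg4, the remaining BTG gene of the table and known from oocytes, had 0 counts in all 6 libraries, which allows at most 0.0156 CPM over the libraries together (3 counts of the total, for counting error only).

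The 4 BTG/TOB genes that were higher in KO had shorter spans than the other members in the annotation (GENCODE M21, GRCm38). Whether gene structure bears on the differences was not tested. Btg2 (chr1:134075170-134079120) spans 3951 bases, Tob1 (chr11:94211454-94215495) 4042, Btg1 (chr10:96617006-96622809) 5804 and Tob2 (chr15:81848272-81858796) 10525. In each of these 4 genes the longest transcript has 2 exons. Btg3 (chr16:78332637-78377192) spans 44556 bases, with 4 exons in its longest transcript. The 5 CCR4-NOT members span 14442 bases (Cnot8) to 93839 bases (Cnot6l), with 6 to 49 exons. The median span of the tested genes was 20110 bases.

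Cnot1, the scaffold on which the complex assembles, was lower in KO by a small amount. Control libraries 1, 2 and 3 held 463.1, 476.0 and 456.5 CPM, and KO libraries 1, 2 and 3 held 406.6, 341.1 and 348.6 CPM. Every KO library was below every control library, with KO replicate 1 nearest to control. The means were 465.2 ± 9.93 and 365.4 ± 35.8 CPM (n = 3, SD; log2 fold change −0.35, SE 0.119). Cnot1 no longer passed the call rule when libraries were scaled by total count alone (log2 fold change −0.26), without a filter on low counts (−0.36), without replicate 3 of both groups (−0.33), or without control replicate 1 (−0.42), control replicate 2 (−0.34), KO replicate 2 (−0.30) or KO replicate 3 (−0.32).

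The CCR4-type nuclease genes Cnot6 and Cnot6l differed from each other in how they compared between the groups. Cnot6 held 297.5, 314.1 and 269.4 CPM in control libraries 1, 2 and 3 and 319.0, 325.9 and 269.4 CPM in the KO libraries. The groups overlapped, with replicate 3 the lowest in each (log2 fold change 0.054, SE 0.125, and −0.0088 without control replicate 1 and −0.063 without control replicate 3). Cnot6l held 157.1, 149.2 and 200.5 CPM in control and 107.7, 103.8 and 108.5 CPM in KO. Control replicate 3 was the highest, the KO libraries lay within a narrow range, and the groups did not overlap. The Cnot6l means were 168.9 ± 27.6 and 106.7 ± 2.53 CPM (n = 3, SD; log2 fold change −0.66, SE 0.132).

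The CAF1-type nuclease genes, to which BTG and TOB proteins bind, showed small differences of opposite sign that did not pass the call rule. Cnot7 held 106.8, 106.2 and 96.7 CPM in control libraries 1, 2 and 3 and 89.6, 98.1 and 84.8 CPM in the KO libraries. The Cnot7 groups overlapped, since KO replicate 2 exceeded control replicate 3 (log2 fold change −0.18, SE 0.107, and −0.29 without control replicate 3). Cnot8 held 53.9, 65.7 and 59.4 CPM in control and 69.9, 74.2 and 68.9 CPM in KO. All KO libraries of Cnot8 were above all control libraries (log2 fold change 0.25, SE 0.114), and the value was 0.11 without control replicate 1. When libraries were scaled by total count alone, Cnot8 passed the call rule (log2 fold change 0.34), and the Cnot7 value was −0.095.

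To compare genes with one another, counts were divided by exonic length and scaled to one fixed total per library, as in TPM, and shares and ratios were taken within each library. The summed level per length of the 5 BTG/TOB genes was 2.80, 2.55 and 3.81 times that of Cnot7 and Cnot8 together in control libraries 1, 2 and 3. In the KO libraries it was 6.76, 8.60 and 8.04 times. The ratio thus went from 3.05 ± 0.666 to 7.80 ± 0.942 (n = 3, SD), with no overlap between the groups. Relative to Cnot1 alone, the BTG/TOB sum was 4.53 ± 0.930 times in control and 15.9 ± 3.77 times in KO. The size of this ratio depends on the gene length used: with the longest transcript it was 2.50 ± 0.463 in control and 8.65 ± 2.03 in KO.

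The make-up of the BTG/TOB sum also differed. Btg1 gave 54.9%, 55.8% and 70.2% of the sum in control libraries 1, 2 and 3 and 37.1%, 36.0% and 38.5% in the KO libraries. Btg2 gave 18.7%, 18.4% and 13.1% in control and 36.3%, 36.8% and 35.5% in KO. The share of Btg1 was lower in every KO library than in any control library, and that of Btg2 was higher. Tob1 gave 5.36% ± 1.12 in control and 10.3% ± 1.02 in KO, whereas Tob2 gave 14.4% ± 3.97 and 15.1% ± 0.343 (n = 3, SD). Btg3 gave 3.21% ± 0.355 and 1.24% ± 0.154.

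**Figure D2:**
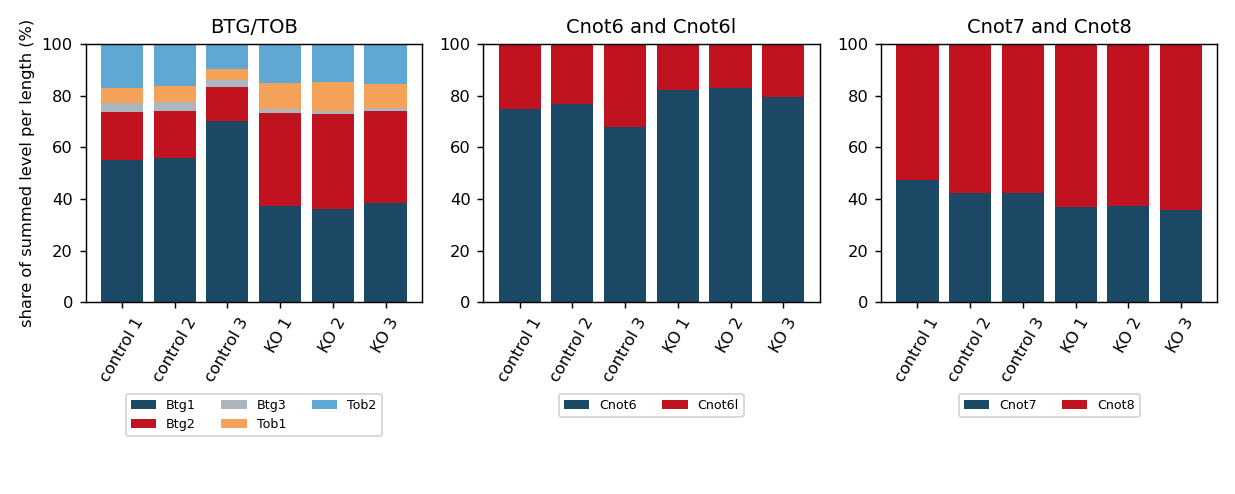
Share of each gene in the summed level per length, in percent, in each of the 6 libraries; the panels show the BTG/TOB genes, Cnot6 with Cnot6l, and Cnot7 with Cnot8. The Btg2 share lies between 13.1% and 18.7% in control and between 35.5% and 36.8% in KO.

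Within the nuclease pairs, Cnot6 gave 74.7%, 76.7% and 67.7% of the Cnot6 and Cnot6l sum in control libraries 1, 2 and 3. It gave 82.2%, 83.0% and 79.5% in the KO libraries, all above the control libraries. Cnot7 gave 47.3%, 42.3% and 42.4% of the Cnot7 and Cnot8 sum in control and 36.7%, 37.4% and 35.8% in KO, all below control. With these lengths, both pairs therefore leaned further toward one member in KO, toward Cnot6 in one and toward Cnot8 in the other. With the longest transcript, Cnot7 held 51.7%, 46.6% and 46.8% of its pair in control libraries 1, 2 and 3. The member that led this pair in control thus depended on the gene length used.

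The order of the levels per length in control ran from Btg1 (231.5 ± 84.8 TPM) through Cnot6 (135.8 ± 7.52), Cnot1 (82.9 ± 3.35) and Cnot8 (69.1 ± 3.49) to Btg2 (61.4 ± 3.41), Cnot7 (54.3 ± 3.56), Tob2 (51.9 ± 6.35), Cnot6l (50.3 ± 10.02), Tob1 (19.6 ± 0.922) and Btg3 (11.9 ± 1.23). The ranges of Btg2 and Cnot7, of Cnot7 and Tob2, and of Tob2 and Cnot6l overlapped. Within control libraries 1, 2 and 3, Btg2 was nevertheless above Cnot7 each time (64.6 against 58.4, 57.8 against 52.1 and 61.6 against 52.3). The order of Cnot7 and Tob2, and of Tob2 and Cnot6l, varied between control libraries. In KO the order began with Btg1 (416.6 ± 61.8), Btg2 (407.0 ± 71.8), Tob2 (168.8 ± 24.8), Cnot6 (155.4 ± 15.9) and Tob1 (116.5 ± 29.7), and continued with Cnot8, Cnot1, Cnot7, Cnot6l and Btg3. Btg1 and Btg2 overlapped in KO, as did Tob2 and Cnot6, Cnot6 and Tob1, and Tob1 and Cnot8. Within each KO library, Cnot6 was above Tob1 and Tob1 above Cnot8, whereas the order of Btg1 and Btg2, and of Tob2 and Cnot6, varied. With the longest transcript in place of all exonic bases, Cnot1 came second in control, at 128.5 ± 5.67 TPM and overlapping Cnot6, and the order of the other mid-level members changed as well.

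The profiles of Btg2 and Tob1 over the 6 libraries were close to each other. After subtracting each gene's control mean, their log2 CPM profiles lay a root mean square distance of 0.143 apart. This distance is not independent of their log2 fold changes between the groups, 2.59 for Btg2 and 2.43 for Tob1. Among 9434 other genes averaging 5 CPM or more, the 3 nearest to Btg2 were Bcl6, a transcriptional repressor of follicular helper T cells, at 0.182, Il18r1, a subunit of the interleukin 18 receptor, at 0.231, and Ms4a4b, a membrane protein of T cells, at 0.234. Bcl6 held 8.39, 9.04 and 7.27 CPM in control libraries 1, 2 and 3 and 36.5, 48.4 and 41.7 CPM in the KO libraries. These 3 genes were picked for their likeness to Btg2, so their differences between the groups are not independent of it.

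The 6 other CCR4-NOT subunits, from a list chosen with earlier results of these data known, included 3 that fell and 1 that rose. Of all tested genes, 22.9% fell and 23.2% rose by the same rule, 46.1% in either direction, and with 6 genes the count is not read as a result about the subunits. Cnot2, which forms a module with CNOT3, fell from 106.7 ± 3.71 CPM to 82.1 ± 3.25 (n = 3, SD; log2 change −0.38, SE 0.0988, edgeR adjusted p = 0.0134). It lost its call without KO replicate 2 (log2 fold change −0.35, adjusted p = 0.0654). Cnot10, which sits with CNOT11 at one end of the scaffold, fell from 87.3 ± 6.37 CPM to 65.4 ± 8.19 (−0.42, SE 0.125, edgeR adjusted p = 0.0242). Cnot9, a subunit that binds RNA-binding adaptors, fell from 130.7 ± 21.6 CPM to 96.7 ± 9.25 (−0.43, SE 0.144, edgeR adjusted p = 0.0359), although KO replicate 1 (107.4 CPM) exceeded control replicate 3 (107.1 CPM).

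Cnot11 rose from 48.7 ± 7.82 CPM to 73.2 ± 4.45 (n = 3, SD; log2 fold change 0.59, SE 0.138, edgeR adjusted p = 0.0086), opposite in direction to its partner Cnot10. Its call was lost without control replicate 1 (0.50, adjusted p = 0.070). Cnot3 (−0.10, edgeR adjusted p = 0.433) and Cnot4, a ubiquitin ligase (0.12, edgeR adjusted p = 0.396), were not called. The calls of Cnot9 and Cnot10 were lost when libraries were scaled by total count alone (with adjusted p = 0.0749 and 0.0581). The call of Cnot9 was also lost without control replicate 1 (−0.48, adjusted p = 0.0825), control replicate 2 (−0.34, 0.0976), KO replicate 2 (−0.39, 0.126) or KO replicate 3 (−0.40, 0.111). That of Cnot10 was lost without control replicate 2 (−0.37, 0.061), KO replicate 2 (−0.41, 0.0837) or KO replicate 3 (−0.33, 0.093).

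Of 9 tested genes listed as other deadenylases or their relatives, 2 rose and 2 fell, near the 46.1% called among all tested genes. The list median log2 fold change was −0.069. Angel2, a relative of the CCR4-type nucleases, rose from 56.9 ± 6.83 CPM to 99.7 ± 9.56 (n = 3, SD; 0.81, SE 0.130, edgeR adjusted p = 0.0016). Pde12, which trims poly(A) in mitochondria, rose from 66.0 ± 2.54 CPM to 80.6 ± 2.70 (0.29, edgeR adjusted p = 0.0428), a call lost in 11 of 13 alternatives, and the value was 0.19 without control replicate 1. Parn, a nuclear deadenylase, fell from 64.3 ± 5.40 CPM to 40.6 ± 4.96 (−0.66, SE 0.132, edgeR adjusted p = 0.00401). Noct fell from 47.3 ± 10.2 CPM to 29.9 ± 9.15 (−0.66, edgeR adjusted p = 0.0474), with overlapping groups and 34.2% of its 50-base stretches held by other genes too. Its call was lost when libraries were scaled by total count alone (−0.57, adjusted p = 0.0815) and without control replicate 1 (−0.55), control replicate 2 (−0.70), KO replicate 2 (−0.63) or KO replicate 3 (−0.47).

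Among 8 genes of poly(A)-binding proteins and their partners, 1 rose and 3 fell, also near the 46.1% called among all tested genes, with a list median of 0.0031. Prmt1, an arginine methyltransferase that BTG1 and BTG2 bind, fell from 202.4 ± 47.1 CPM to 82.1 ± 19.9 (n = 3, SD; −1.30, SE 0.215, edgeR adjusted p = 0.00178). Its control libraries 1, 2 and 3 held 207.7, 246.7 and 152.9 CPM and its KO replicates 104.7, 74.3 and 67.2 CPM. Pabpc4 fell from 199.7 ± 26.2 CPM to 109.8 ± 18.1 (−0.86, SE 0.154, edgeR adjusted p = 0.00256), but other genes, mainly Gm10110, hold 54.8% of its 50-base stretches, so its value is uncertain. Pabpc1, the main cytoplasmic poly(A)-binding protein, was not called (−0.17, edgeR adjusted p = 0.296).

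The adaptor list holds RNA-binding and Argonaute-associated proteins that bring CCR4-NOT to particular messages. Of its 21 tested genes, 7 rose, 1 fell and 13 were not called, against 23.2% higher and 22.9% lower among all tested genes, with a median of 0.030. Zfp36, which binds AU-rich messages, rose from 31.9 ± 5.43 CPM to 110.2 ± 11.3 (n = 3, SD; 1.79, SE 0.153, edgeR adjusted p = 0.000136). Its relative Zfp36l1 rose from 24.6 ± 2.64 CPM to 119.0 ± 10.7 (2.28, SE 0.131, edgeR adjusted p = 3.9e-05). Zfp36l1 is uncertain, because 55.9% of its exonic bases overlap Gm26669 on the opposite strand and the strand setting of the counting was not given. The third relative, Zfp36l2, was not called (−0.15, edgeR adjusted p = 0.410). Nanos1 fell from 11.3 ± 0.897 CPM to 5.07 ± 0.377 (−1.15, SE 0.184, edgeR adjusted p = 0.00157).

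Genes of decapping and 5′-to-3′ decay, the steps that follow tail shortening, included 2 that rose and 8 that fell of 19 tested, against 23.2% higher and 22.9% lower among all tested genes, with a median of −0.27. Dcps, which clears the cap after decay, fell from 40.6 ± 1.98 CPM to 19.9 ± 1.28 (n = 3, SD; −1.03, SE 0.123, edgeR adjusted p = 0.000488). Lsm2 fell from 40.9 ± 11.3 CPM to 17.1 ± 6.08 (−1.26, SE 0.284, edgeR adjusted p = 0.00708). It belongs to the ring of Lsm1 to Lsm7, of which 5 of 7 genes fell, against 22.9% of all tested genes. These 7 genes are among the 19 tested, and with 7 genes the count is not read as a result about the ring. Lsm1 (−0.052, edgeR adjusted p = 0.805) and Lsm4 were not called. Gm7846 also holds 18.7% of the 50-base stretches of Lsm5, and Gm10146 holds 14.1% of those of Lsm7. The calls of Lsm3, Lsm6 and Lsm7 were each lost without control replicate 2, KO replicate 2 or KO replicate 3, and that of Lsm6 also without control replicate 1. The Lsm4 value was −0.35 (edgeR adjusted p = 0.0741), and the gene passed the call rule once the replicate block entered the fit (−0.35, edgeR adjusted p = 0.0206) and without control replicate 1 (−0.51, 0.0494) or control replicate 3 (−0.45, 0.0457). Lsm14b rose from 49.3 ± 3.96 CPM to 82.1 ± 7.43 (0.74, SE 0.119, edgeR adjusted p = 0.00166). Edc4, a decapping scaffold, rose from 92.1 ± 6.69 CPM to 121.5 ± 4.45 (0.40, SE 0.105, edgeR adjusted p = 0.0138), a call lost without control replicate 1 (0.35, adjusted p = 0.0977), control replicate 3 (0.28, 0.0749) or KO replicate 2 (0.37, 0.0599).

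**Figure D3:**
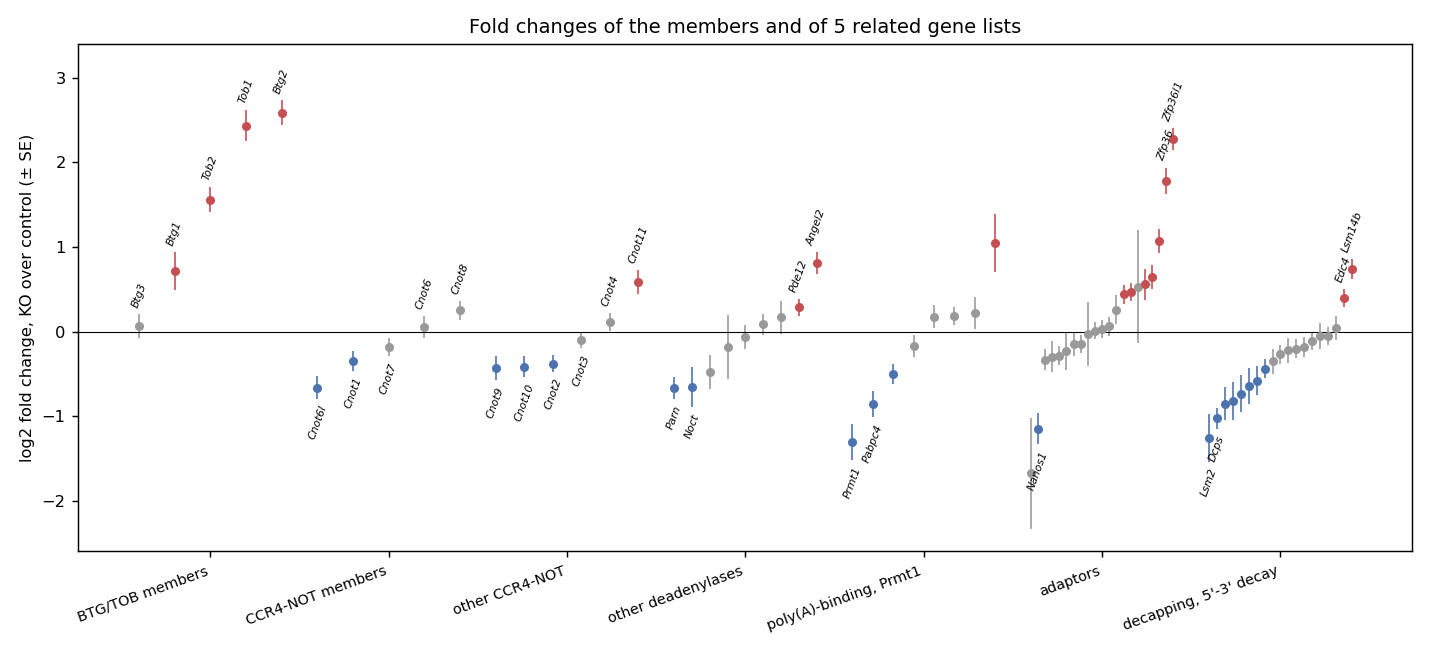
Log2 fold change of KO over control with its standard error for each tested gene of the members and of the related lists; red and blue points passed the edgeR call rule upward and downward, and grey points did not. Btg2 (2.59), Tob1 (2.43) and Zfp36l1 (2.28) lie highest, and the CCR4-NOT genes lie between −0.66 and 0.59.

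The 13 alternative analyses refit the same libraries, so their values are a description of how far the members' differences depend on the processing. Over these analyses the log2 fold changes ranged from 2.45 to 2.69 for Btg2, 2.22 to 2.55 for Tob1, 1.40 to 1.65 for Tob2 and −0.77 to −0.54 for Cnot6l. Without replicate 3 of both groups, the values were 2.60, 2.47, 1.46 and −0.54.

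**Figure D4:**
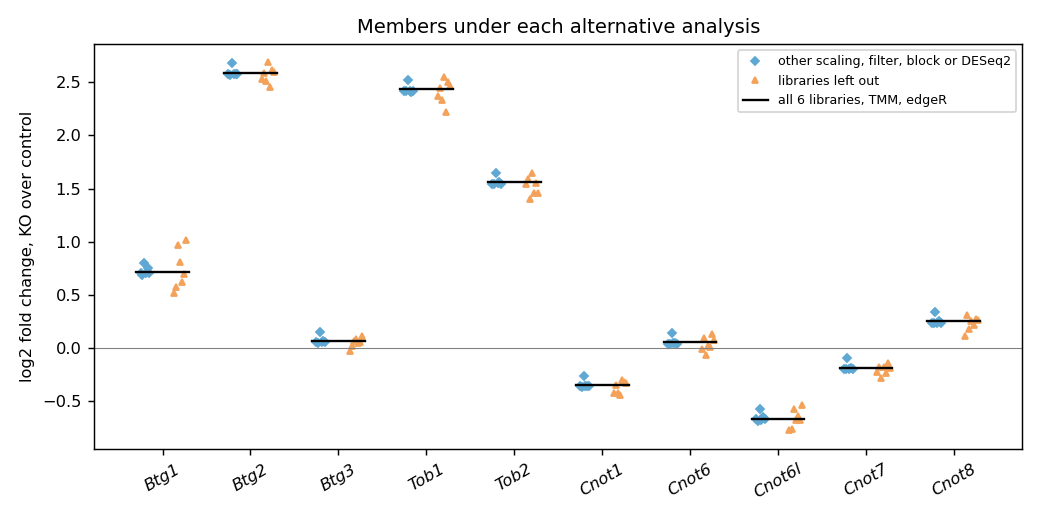
Log2 fold change of KO over control for each member with all libraries (black lines), under other scalings, filters, the replicate block and DESeq2 (blue diamonds), and with libraries left out (orange triangles). Btg1 is the member whose value spreads most, from 0.52 to 1.01, and only Btg3 and Cnot6 cross 0.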

How the data were processed

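The members and gene lists were chosen with earlier results of these data known. The authors deposited raw counts, whole numbers for each gene symbol, in one column per library, matched here to samples by the description label. The submitters' processing notes name STAR, featureCounts, DESeq2 and the mm10 build, without roles or versions. The annotation and strand setting were not given in the sources used here. There were 0 columns without a sample and 0 rows without a gene name.

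KO was compared with control by the quasi-likelihood test of edgeR (version 4.0.16, R 4.3.3) with TMM factors, filterByExpr by group and Benjamini-Hochberg adjustment over all 14268 tested genes. Genes with an adjusted p under 0.05 were called (6574, with 7724 at an unadjusted p under 0.05). The SE is the absolute log2 fold change over the square root of the F statistic. Profiles used log2 CPM with a prior count of 2. Exonic lengths came from GENCODE M21 (GRCm38), which held 98.2% of the symbols. No molecular identifiers are stated, so the test relies on the spread between libraries, a biological coefficient of variation of 0.212.

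Genes outside the members were named by rule: all other CCR4-NOT subunits, Btg4, up to 2 called genes per list and direction with a mean of at least 5 CPM, and the 3 genes nearest to Btg2. Other list genes were named after their values were seen. Alternatives were other scalings, DESeq2 1.42.0, no filter, the replicate block and leaving out each library. Leaving out replicate 3 of both groups was added after the data were seen. Libraries with equal replicate numbers in the titles had deviations from their group means that correlated across genes at 0.27, 0.13 and 0.38. Pairing by number is therefore possible but not established. The main fit did not pair the libraries, and the replicate block entered only as an alternative. What a number stands for is not given, and the second control library was closer to the first KO library (0.204).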

Additional observations from a re-analysis of the deposited data

How the results depend on the processing

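Leaving out 1 library at a time gave 4460 to 7050 called genes (6574 with all libraries) and 4 to 6 called members (6 with all). The replicate block gave 7628 called genes and 6 called members and, of the 48 genes refitted under every alternative, changed the call of Lsm4 alone (−0.35, now called). DESeq2 gave 6746 called genes and 6 members, and without replicate 3 of both groups there were 6351 and 5. Of these 48 genes, 8 with small differences changed sign. When single libraries were left out, Btg3 ranged from −0.027 to 0.086, Cnot6 from −0.063 to 0.13, Rc3h1 from −0.011 to 0.079, Tnrc6a from −0.054 to 0.064, Pan3 from −0.029 to 0.11 and Lsm1 from −0.24 to 0.044. Without replicate 3 of both groups, Pan2 was 0.051 and Zfp36l2 0.0059, and with total-count scaling Pan2 was 0.019 and Lsm1 0.038. Over the 48 genes and 13 alternatives, 556 values kept their direction and side of the threshold, 51 lost the call, 4 gained it and 13 changed sign. Scaling by total count alone gave Btg3 0.15, Cnot6 0.14, Cnot3 −0.014 and Cnot4 0.20. Cnot3 was −0.16 without control replicate 2, and Cnot4 was 0.065 to 0.074 without control replicate 1, 2 or 3. Under that scaling the median log2 fold change of all genes was 0.102. With the longest transcript as gene length, the shares in KO were 35.2% for Btg1 and 32.5% for Btg2, and Cnot7 held 48.4% of its pair in control and 40.8% in KO, and the BTG/TOB sum in KO was 6.47 times that of Cnot7 and Cnot8, while over Cnot1 it was 2.50 times in control and 8.65 times in KO, since only the lengths differ. Each member had at least 244 counts in every library.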

Other observations

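Several adaptor genes outside the naming rule, chosen after their values were seen, also differed between the groups, and their p-values are only a description. Cpeb4, which binds cytoplasmic polyadenylation elements, rose from 46.3 ± 7.96 CPM to 97.1 ± 6.40 (n = 3, SD; log2 fold change 1.07, SE 0.145, edgeR adjusted p = 0.000783). Rc3h2, a Roquin protein that brings CCR4-NOT to stem-loop messages, rose from 96.3 ± 16.5 CPM to 150.5 ± 6.23 (0.64, SE 0.138, edgeR adjusted p = 0.00553), while its relative Rc3h1 was not called (0.063, edgeR adjusted p = 0.668). Tnrc6c, a scaffold that links Argonaute to CCR4-NOT, rose from 49.8 ± 3.93 CPM to 68.7 ± 2.29 (0.47, SE 0.110, edgeR adjusted p = 0.00867), while Tnrc6a was not called (0.030, edgeR adjusted p = 0.834). Whether these differences between relatives exceed their error was not tested. The nuclease and partner of the PAN2-PAN3 deadenylase were not called either, Pan2 at −0.069 (edgeR adjusted p = 0.713) and Pan3 at 0.086 (edgeR adjusted p = 0.589).

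Control replicate 3 was the highest control library for both Btg1 (552.0 CPM, against 314.4 and 324.3) and Cnot6l (200.5 CPM, against 157.1 and 149.2). It was also the highest for Tnrc6b (187.4 CPM, against 119.8 and 95.1) and for the Th17 marker Il23r (43.3 CPM, against 20.3 and 18.9). This library held Y-linked counts, and its part in these values was not tested.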
